A study of Mus musculus with 8 samples.

Results

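The genes described here build cholesterol, sense it, move it inside the cell and export it. They were chosen by name, 33 of the 21885 genes measured, by their known roles and not by a threshold on their values. Earlier results of these data were known when the list was made. Of them, 19 are enzymes that make cholesterol (7 from acetyl-CoA to the isoprenoid units and 12 from squalene to the finished sterol), 5 set the activity of the SREBP factors, 5 carry, esterify or limit the uptake of cholesterol, and 4 export it or switch its export on. All 33 were measured in mouse skin, in 4 libraries after MC903 and in 4 after MC903 together with phytic acid. MC903 (calcipotriol) is an analogue of vitamin D whose application to mouse skin is used as a model of atopic dermatitis. Phytic acid is inositol hexaphosphate, in which plant seeds store phosphate. The study is about the skin barrier in such models, and its design compares the second treatment with the first. Both groups had received MC903 and neither was untreated skin, so that each change below is relative to MC903 skin. Strain, age, body site, dose and time are not given in the labels. The labels also do not say whether replicates came from separate mice, and p-values then measure only the spread between these libraries, which may be technical.

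Cells make cholesterol from acetyl-CoA through mevalonate, isoprenoid diphosphates, squalene and lanosterol. When sterol in the endoplasmic reticulum is low, SCAP carries the SREBP factors to the Golgi, where they are cut and released to switch on nearly every enzyme of the pathway; when sterol is high, the INSIG proteins hold SCAP back. Oxidised sterols work the other way through the LXR receptors, which switch on export. In epidermis, keratinocytes make cholesterol locally, and it is 1 of the main lipids of the water barrier of the stratum corneum.

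Promoter sequences are shown first because the SREBP-controlled enzymes are known to share a compact promoter plan, in which a sterol regulatory element stands near CCAAT boxes (bound by NF-Y) and GC boxes (bound by SP1). RefSeq promoter windows of GRCm38.p6 were at hand for 27 of the 33 genes, in 36 windows, and not for Fdps, Fdft1, Sqle, Stard4, Npc1 and Abcg1. The sequences below run 5′ to 3′ on the gene's strand, upstream of its first exon, and end before the outermost start that the annotation gives; that of Hmgcs1 is a stretch further upstream, around its element. Capitals mark the sterol regulatory element in Hmgcs1, CCAAT or its reverse complement ATTGG in Mvk, Mvd, Lss, Hsd17b7 and Insig2, and the E-box CACGTG in Insig1. The window of Acat2 holds no CCAAT and so has no capitals.
Hmgcs1, chr13:119690169-119690267, plus strand: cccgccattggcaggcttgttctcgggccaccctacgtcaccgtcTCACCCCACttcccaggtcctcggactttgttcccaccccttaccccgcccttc
Acat2, chr17:12960748-12960845, minus strand: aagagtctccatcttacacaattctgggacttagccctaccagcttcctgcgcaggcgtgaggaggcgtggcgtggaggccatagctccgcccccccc
Mvk, chr5:114444149-114444268, plus strand: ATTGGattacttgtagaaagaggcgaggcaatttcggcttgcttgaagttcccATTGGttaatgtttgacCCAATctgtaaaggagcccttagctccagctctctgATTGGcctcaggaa
Mvd, chr8:122443423-122443542, minus strand: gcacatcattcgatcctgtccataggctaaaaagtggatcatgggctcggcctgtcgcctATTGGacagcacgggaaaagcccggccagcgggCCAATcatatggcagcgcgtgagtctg
Lss, chr10:76531485-76531587, plus strand: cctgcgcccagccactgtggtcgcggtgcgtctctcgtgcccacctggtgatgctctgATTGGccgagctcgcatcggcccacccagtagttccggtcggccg
Hsd17b7, chr1:169969242-169969325, minus strand: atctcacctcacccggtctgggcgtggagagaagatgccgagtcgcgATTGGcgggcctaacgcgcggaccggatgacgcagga
Insig1, chr5:28071272-28071362, plus strand: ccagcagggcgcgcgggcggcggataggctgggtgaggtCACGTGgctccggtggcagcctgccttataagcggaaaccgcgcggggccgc
Insig2, chr1:121332590-121332709, minus strand: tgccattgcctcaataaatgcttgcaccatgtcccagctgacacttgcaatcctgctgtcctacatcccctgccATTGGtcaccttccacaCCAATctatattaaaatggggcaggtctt

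CCAAT boxes were common in these promoters. Within 250 bases before a start, on either strand, CCAAT stood in 22 of the 27 genes (81.5%) and in 15 of the 16 synthesis enzymes with a window (93.8%), the exception being Acat2. Of the 9660 tested genes with a window, 40.1% held it, and 33.8% of all RefSeq windows did. The share was 84.6% among the 13 lowered members with a window and 78.6% among the other 14. Mvk held 5 copies, the most of the 27 genes, and Scap, Abca1, Nr1h2 and Nr1h3 held none. Within 100 bases the shares were 87.5% of the synthesis enzymes and 25.6% of tested genes. The GC box GGGCGG stood in 23 of the 27 genes (85.2%) against 62.8% of tested genes, and CACGTG in 6 (22.2%) against 9.99%. Within 100 bases these shares came close to those of tested genes, at 55.6% against 50.9% for GGGCGG and 7.41% against 5.48% for CACGTG. Within 250 bases GGGCGG stood in 100% of the 13 lowered members and 71.4% of the other 14, and CACGTG in 15.4% and 28.6%. Within 100 bases GGGCGG stood in 61.5% and 50%. These differences between lowered and other members were not tested. The sterol regulatory element, searched as TCACNCCAC, was found in 1 gene, Hmgcs1, and in 1.24% of tested genes. The direct repeat to which LXR binds (DR4) was found in none of the 27 genes, and in none of the 9660 tested genes with a window. Its absence from the members therefore does not set them apart. These are matches of letters only, a gene with several windows has more chance of one, and other spellings of each element were not searched.

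**Figure D1:**
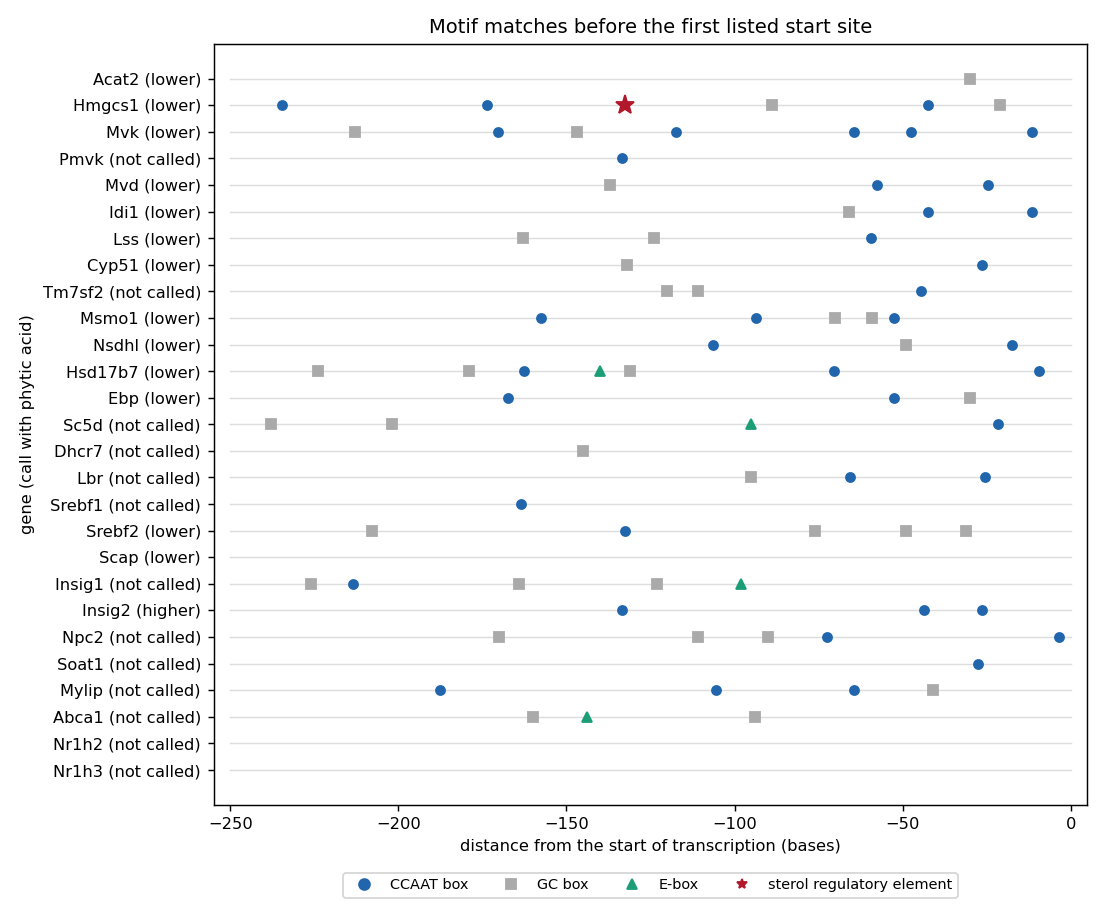
Positions of motif matches in the 250 bases before the first listed RefSeq start of 27 genes, with the distance from the start in bases on the horizontal axis and 1 line per gene, its call with phytic acid in brackets. Circles are CCAAT boxes, squares GC boxes, triangles E-boxes and the star the sterol regulatory element; circles stand on most lines of the synthesis enzymes, while the star stands on the Hmgcs1 line alone.

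Library totals, recovered from the values, ran from 31676926 to 37639475 reads with MC903 and from 38310042 to 42997274 with phytic acid, so the deepest MC903 library was shallower than any phytic acid library. Each of the 32 members whose reads could be recovered had between 165 and 23649 reads in a library. MC903 replicate 3 stood apart: its summed hair follicle markers reached 4256 FPKM (reads scaled to the length of the gene and to the library total), against 439 to 592 in the other MC903 libraries and 19.8 to 27.0 with phytic acid. On the first principal component, which held 63.8% of the variance, it lay at -8.41, between the other MC903 libraries (-42.8 to -33.3) and the phytic acid libraries (24.9 to 39.5). Leaving it out gave 16 members lower, as with it, and 2 higher in place of 1. Basal keratinocyte markers summed to between 4498 and 8116 FPKM with MC903 and to between 2749 and 3241 with phytic acid. However, of the 12 markers 2 were higher and 3 were lower (14.2% and 11.6% over all tested genes). The other 7 were not called, and the median log2 fold change of the 12 was -0.13. Cell cycle genes summed to between 126 and 162 FPKM and to between 61.0 and 105, with 7 of 10 lower (11.6% of all tested genes were). Mitochondrial RNA, a sign of RNA quality, summed to between 18372 and 26191 FPKM and to between 23496 and 34338. Of its 8 genes 1 was higher (14.2% of all tested genes were), with a median of 0.50. The part of these in the results was not tested. In bulk skin, fewer cells of a type and less RNA per cell cannot be told apart.

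All 33 members passed the filter on low values (4 or more libraries with an FPKM of 1 or more), and limma was run on log2(FPKM + 1) of the 12165 genes that did. A gene was called at a Benjamini-Hochberg adjusted p under 0.05. With phytic acid 16 members were lower (11.6% of all tested genes were), 1 was higher (14.2% of all tested genes were) and 16 were not called, against 25.8% of tested genes called in either direction. All libraries of 1 group lay below all of the other for 16 members in the lower direction (13% of tested genes) and for 2 in the higher (14.3%). The median log2 fold change was -0.36 over the members and 0.05 over all tested genes. Of the 19 synthesis enzymes 14 were lower, at a median of -0.71, and of the other 14 genes 2 were lower and 1 was higher, at a median of 0.09. The difference between the 2 sets was not tested. Among the lowered enzymes, Fdps met the filter through its MC903 libraries. With a filter at a mean FPKM of at least 5, which leaves Fdps out, 13 synthesis enzymes were lower. No synthesis enzyme was higher, whether by adjusted p, by unadjusted p under 0.05 or by voom on the recovered reads.

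**Figure D2:**
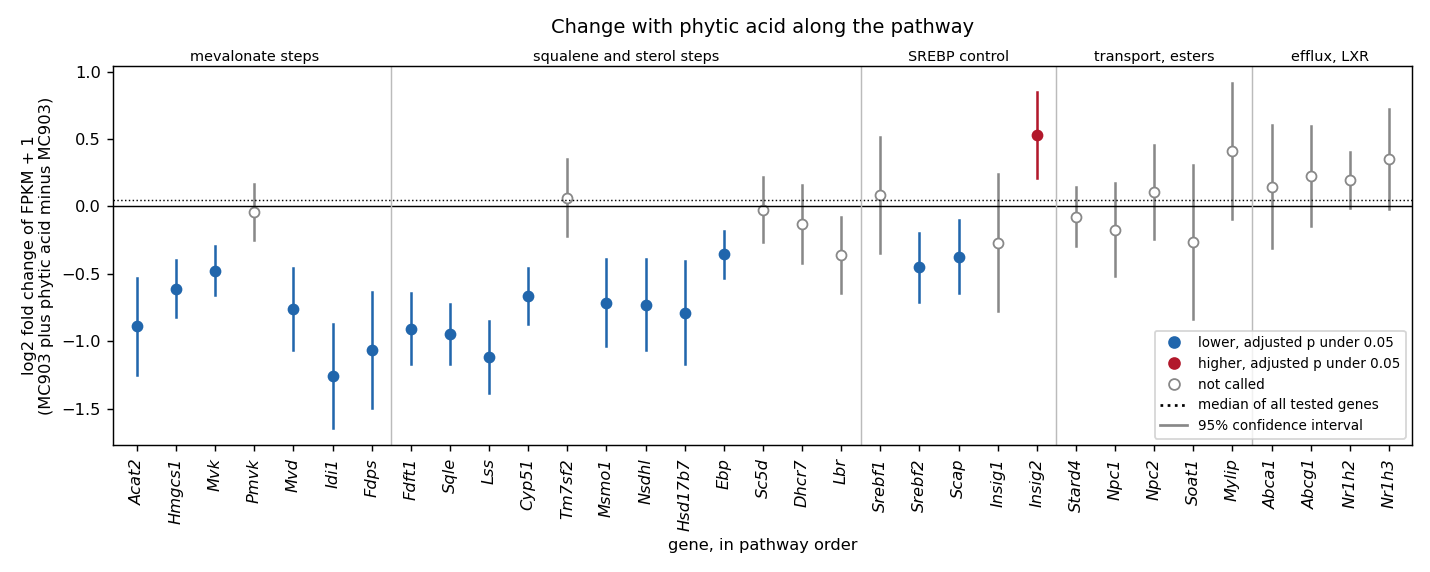
Log2 fold change of FPKM + 1 (vertical axis, MC903 plus phytic acid minus MC903) for the 33 genes in pathway order, each point an estimate from 4 libraries per group with its 95% confidence interval. Filled blue points are lower and filled red higher at adjusted p under 0.05, open points are not called, and the dotted line is the median of all tested genes, 0.05; 14 of the 19 synthesis enzymes on the left are blue and the 1 red point is Insig2.

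Of the 7 enzymes that lead from acetyl-CoA to farnesyl diphosphate, 6 fell with phytic acid and 1, Pmvk, did not pass the test; the median log2 fold change was -0.76. Idi1, the isomerase that balances the pair of isoprenoid building blocks, fell furthest on the log2(FPKM + 1) scale. Idi1 (chr13:8885501-8892451, plus strand) stood at 64.6, 62.7, 57.8 and 64.0 FPKM in the MC903 libraries, in order of replicate, and at 35.2, 20.3, 19.9 and 29.2 FPKM in the phytic acid libraries. The groups did not overlap, and the MC903 libraries lay closer together than the phytic acid libraries, where replicates 2 and 3 were lowest. The mean went from 62.3 ± 3.10 to 26.2 ± 7.40 FPKM (SD, n = 4 per group), 42.0% of its MC903 level, a log2 fold change of -1.26 ± 0.17 (SE) with a limma adjusted p of 0.00133.

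The first steps fell less. Acat2, the cytosolic thiolase that joins acetyl-CoA units, read 43.6, 52.7, 45.3 and 47.0 FPKM with MC903 and 35.0, 22.8, 19.5 and 24.8 with phytic acid. Its phytic acid replicate 1 was the highest of its group and still below every MC903 library; the log2 fold change was -0.89 ± 0.16 (adjusted p = 0.0044). Hmgcs1, the synthase that makes HMG-CoA and the most abundant of the 33 transcripts per length, read 148, 141, 137 and 132 FPKM with MC903 and 100.3, 84.8, 91.6 and 87.9 with phytic acid. Both groups were tight and far apart, and its mean stood at 65.4% of the MC903 level (log2 fold change -0.61 ± 0.09, adjusted p = 0.00208). Hmgcs1, whose window above holds the sterol regulatory element, shares 557 exon bases with an antisense gene, and the labels do not say whether reads were counted by strand.

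The 3 enzymes that turn mevalonate into isopentenyl diphosphate did not move alike. Mvk, mevalonate kinase, went from 21.8, 19.9, 19.7 and 22.8 FPKM to 14.7, 15.3, 14.8 and 14.6 FPKM. The phytic acid libraries nearly coincided, at 70.5% of the MC903 mean (log2 fold change -0.48 ± 0.08, adjusted p = 0.00356). Pmvk, the kinase of the next step, read 28.3, 25.8, 32.4 and 27.7 FPKM with MC903 and 29.8, 26.7, 26.7 and 27.1 with phytic acid. Its groups overlapped, and the interval of its log2 fold change ran from -0.25 to 0.16 (adjusted p = 0.759). Mvd, the decarboxylase that follows, read 29.0, 24.9, 30.0 and 28.0 FPKM and then 21.1, 16.1, 13.9 and 14.1 FPKM. Its groups were again apart, and its mean fell to 58.3% of the MC903 level (log2 fold change -0.76 ± 0.13, adjusted p = 0.00402). The RefSeq windows of Mvk and Mvd hold GC boxes, with 5 and 2 CCAAT boxes, and that of Pmvk holds 1 CCAAT box. Over the members with a window, 84.6% of the 13 lowered and 78.6% of the other 14 hold CCAAT, and 100% and 71.4% hold the GC box. The part of these boxes in the changes was not tested.

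Fdps, which makes farnesyl diphosphate at the branch to sterols, prenyl groups, ubiquinone and dolichol, was the least abundant member per length. It read 5.08, 3.87, 2.25 and 3.896 FPKM with MC903 and 0.962, 1.65, 1.39 and 0.979 FPKM with phytic acid. MC903 replicate 3 was the lowest of its group and still above every phytic acid library; the mean went from 3.77 ± 1.16 to 1.25 ± 0.335 FPKM (SD, n = 4 per group), a log2 fold change of -1.06 ± 0.19 (adjusted p = 0.00421). Adding 1 before the logarithm understates so low a gene: its mean fell to 33.02% of the MC903 level, the lowest share of the 33. Fdps met the filter through its MC903 libraries, since 2 of its phytic acid values lay under 1 FPKM. It also shares 1124 exon bases (26.7% of its exons) with Gm43738 on the same strand, which is listed at 0, and its level is therefore uncertain.

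Of the 12 enzymes from squalene to cholesterol, 8 fell and 4 did not pass the test, and the median log2 fold change was -0.69. The lowered genes include the first steps of the chain. Fdft1, squalene synthase, read 67.4, 56.6, 47.7 and 59.1 FPKM with MC903 and 31.3, 28.2, 28.0 and 33.2 FPKM with phytic acid. The lowest MC903 library, replicate 3, lay well above the highest phytic acid library (log2 fold change -0.91 ± 0.12, adjusted p = 0.00102). Fdft1 overlaps Ctsb on the opposite strand over 774 exon bases, 18.3% of its exons, and Ctsb, a lysosomal protease gene, averaged 185 FPKM with MC903 and 155 FPKM with phytic acid. Without a known strand setting part of its signal could belong to Ctsb.

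Sqle, the epoxidase that uses oxygen to open the way to the sterol ring (chr15:59315077-59331192, plus strand), read 53.7, 50.1, 48.2 and 54.6 FPKM with MC903 and 30.8, 25.8, 23.6 and 25.7 FPKM with phytic acid. The groups were narrow and separate, and the mean went from 51.7 ± 3.01 to 26.5 ± 3.02 FPKM (SD, n = 4 per group), a log2 fold change of -0.94 ± 0.10. Its adjusted p, 0.00048, was the smallest of the 33. Lss, which folds the epoxide into lanosterol (chr10:76531588-76557138, plus strand), read 16.6, 13.9, 13.9 and 16.3 FPKM and then 7.24, 7.48, 5.49 and 5.70 FPKM. No phytic acid library came near the MC903 range. Its mean fell to 42.7% of the MC903 level, a log2 fold change of -1.12 ± 0.12 (adjusted p = 0.00049), second in size to Idi1 among the members.

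The 3 demethylation genes after lanosterol fell to similar shares of their MC903 levels. Cyp51, the first of them and a known drug target in fungi, read 89.2, 90.3, 84.8 and 82.2 FPKM with MC903 and 59.9, 50.1, 51.1 and 56.5 FPKM with phytic acid, a fall to 62.8%. Msmo1, which oxidises the methyl groups of the ring, read 74.8, 84.8, 65.2 and 70.2 FPKM and then 57.0, 39.2, 37.3 and 46.6 FPKM, a fall to 61.0%. Nsdhl, which removes the oxidised carbon, read 28.8, 23.2, 23.0 and 25.0 FPKM and then 19.4, 12.1, 12.3 and 15.9 FPKM, a fall to 59.6%. In each the groups were apart, and phytic acid replicate 1 lay nearest to the MC903 range. Their log2 fold changes were -0.66 ± 0.09, -0.71 ± 0.14 and -0.73 ± 0.15, with adjusted p of 0.00139, 0.00744 and 0.0083.

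Hsd17b7, the reductase that completes the removal of those methyl groups, read 50.4, 46.6, 40.5 and 48.1 FPKM with MC903 and 22.9, 35.9, 29.6 and 19.8 FPKM with phytic acid. Here replicates 2 and 3, not 1, were the high phytic acid libraries, and the groups did not overlap (log2 fold change -0.79 ± 0.17, adjusted p = 0.00993). Ebp, the isomerase of the last ring steps, read 26.8, 28.7, 29.6 and 27.3 FPKM and then 22.2, 20.8, 22.0 and 21.9 FPKM. This was the smallest of the 14 falls in synthesis, to 77.3% of the MC903 mean, but both groups were tight (log2 fold change -0.36 ± 0.08, adjusted p = 0.00975).

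The members not called in synthesis, besides Pmvk, were Tm7sf2, Lbr, Sc5d and Dhcr7, all among the steps from squalene to cholesterol. Tm7sf2 and Lbr encode reductases able to carry out the same ring reduction, and Lbr also holds chromatin at the nuclear envelope. Tm7sf2, low per length, read 2.46, 2.53, 2.87 and 2.27 FPKM with MC903 and 3.49, 2.88, 2.14 and 2.38 FPKM with phytic acid, and shares 532 exon bases with Vps51 on its strand. Lbr read 18.2, 16.3, 24.4 and 18.2 FPKM and then 13.8, 15.2, 13.6 and 15.98 FPKM. The groups of Tm7sf2 overlapped, with an interval of -0.22 to 0.35 for its log2 fold change, whereas every phytic acid library of Lbr was below every MC903 library. Lbr missed the threshold (log2 fold change -0.36 ± 0.13, adjusted p = 0.0608), and passed it without MC903 replicate 2 (0.0492) and under median-of-ratios scaling (0.0136).

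Sc5d, a desaturase, read 21.7, 20.01, 20.8 and 18.9 FPKM with MC903 and 24.4, 17.98, 18.5 and 19.6 FPKM with phytic acid. Dhcr7, the reductase that ends the branch through 7-dehydrocholesterol, the precursor of vitamin D, read 23.5, 19.3, 19.8 and 21.7 FPKM and then 20.2, 22.4, 19.98 and 14.8 FPKM. Both overlapped between groups. Their log2 fold changes were -0.02 (95% interval -0.27 to 0.22) and -0.13 (95% interval -0.42 to 0.16), so that a fall of the size seen in Sqle or Lss lies outside both intervals.

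**Figure D3:**
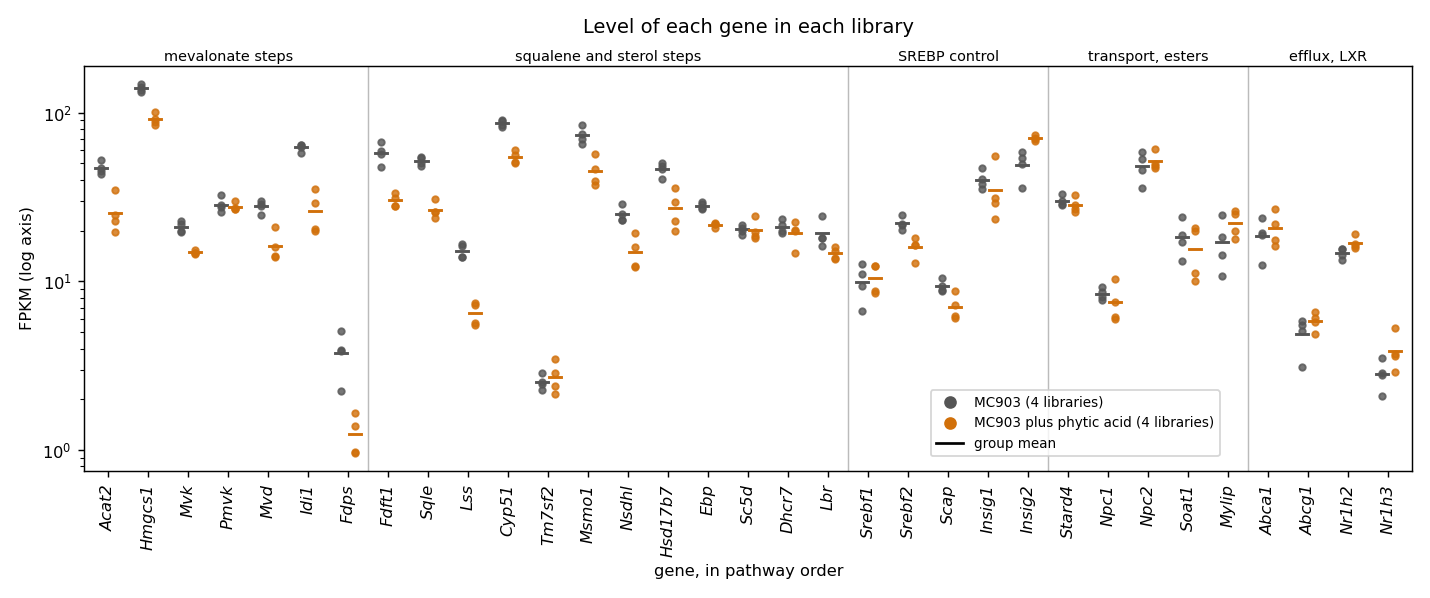
FPKM of the 33 genes in each library on a log axis, genes in pathway order, with grey points for the 4 MC903 libraries, orange points for the 4 MC903 plus phytic acid libraries and bars for group means. Orange points lie wholly under grey points for 15 of the 19 synthesis enzymes and for Srebf2, and wholly above them for Insig2 and Nr1h2.

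The genes that control the SREBP factors gave calls in both directions. Srebf2, the factor that mainly drives sterol genes (chr15:82147181-82205379, plus strand), read 22.0, 20.2, 21.5 and 24.6 FPKM with MC903 and 16.5, 17.97, 12.8 and 16.4 FPKM with phytic acid. The groups were apart and the mean fell to 72.2% of the MC903 level (log2 fold change -0.45 ± 0.11, adjusted p = 0.0187). Srebf1, whose products mainly drive fatty acid genes, read 9.42, 6.71, 12.6 and 11.1 FPKM and then 12.4, 12.4, 8.71 and 8.59 FPKM. Its groups overlapped throughout, and its log2 fold change was 0.08, with an interval of -0.35 to 0.51. In FPKM, Srebf2 stood at 1.699 to 3.01 times Srebf1 in the MC903 libraries and at 1.34 to 1.91 times with phytic acid. The fall of Srebf2 lost its call without MC903 replicate 1 (adjusted p = 0.0516) or replicate 4 (0.0559), under TPM scaling (0.0525) and when libraries were centred on basal keratinocyte genes (0.12).

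Scap, the escort of both factors, read 8.92, 9.44, 8.71 and 10.5 FPKM with MC903 and 7.23, 8.78, 6.24 and 6.06 FPKM with phytic acid. Phytic acid replicate 2 lay inside the MC903 range, and the fall (log2 fold change -0.37 ± 0.12) passed the threshold only barely, at an adjusted p of 0.0479. It lost the call when MC903 replicate 1, 2 or 4 or phytic acid replicate 1, 3 or 4 was left out, with adjusted p between 0.0841 and 0.127. The call was also lost under TPM scaling (0.115), centring on basal keratinocyte genes (0.21), no filter (0.0688), eBayes without trend (0.0505) and scaling to the sum without the 100 highest genes (0.0691). Scap shares 985 exon bases with the annotated gene 5830462I19Rik on the other strand.

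Insig2 was the 1 member that rose. Its product retains SCAP in the endoplasmic reticulum, as does that of Insig1, but Insig1 is itself an SREBP target and Insig2 is less so. Insig2 (chr1:121304353-121332589, minus strand) read 49.3, 53.7, 58.3 and 35.6 FPKM with MC903 and 70.7, 73.8, 67.9 and 69.4 FPKM with phytic acid. The phytic acid libraries lay close together above a wide MC903 range whose lowest library was replicate 4. The mean went from 49.2 ± 9.81 to 70.4 ± 2.50 FPKM (SD, n = 4 per group), a log2 fold change of 0.53 ± 0.14 (adjusted p = 0.0241). Its adjusted p went to 0.0579 when MC903 replicate 1 was left out and to 0.054, 0.0581 and 0.05 when phytic acid replicate 1, 2 or 4 was, which ended the call each time.

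Insig1 read 40.6, 35.1, 46.7 and 37.8 FPKM with MC903 and 55.1, 31.1, 23.4 and 29.1 FPKM with phytic acid. Phytic acid replicate 1 was the highest of all 8 libraries and the other 3 phytic acid libraries were the lowest. With all libraries the log2 fold change was -0.27 (95% interval -0.77 to 0.24, adjusted p = 0.418), and without phytic acid replicate 1 it was -0.51 and was called (adjusted p = 0.0336). The ratio of Insig1 to Insig2 in FPKM was 0.823, 0.654, 0.801 and 1.06 with MC903 and 0.780, 0.422, 0.345 and 0.419 with phytic acid. Phytic acid replicate 1 was again the library inside the MC903 range.

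None of the 5 genes of transport, esterification and uptake passed the test, by adjusted p, by unadjusted p under 0.05 or by voom; their median log2 fold change was -0.08. Npc2 and Npc1 hand cholesterol out of the lysosome, and Stard4 carries it between membranes. Npc2 ranged from 35.8 to 58.3 FPKM with MC903 and from 46.8 to 61.2 with phytic acid, Npc1 from 7.74 to 9.29 and from 6.01 to 10.4, and Stard4 from 28.5 to 32.8 and from 25.6 to 32.6. All 3 overlapped. The interval of the log2 fold change ran from -0.24 to 0.45 for Npc2, from -0.52 to 0.17 for Npc1 and from -0.30 to 0.14 for Stard4.

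Soat1, which esterifies cholesterol for storage, read 18.8, 13.2, 24.0 and 17.0 FPKM with MC903 and 20.7, 19.95, 9.996 and 11.2 FPKM with phytic acid. The phytic acid libraries fell into a high pair and a low pair on either side of most MC903 libraries, and the interval, -0.83 to 0.31, was the widest of the 33. Mylip, an LXR target whose product sends lipoprotein receptors for degradation, read 18.2, 10.8, 24.8 and 14.3 FPKM and then 19.9, 25.0, 26.2 and 17.9 FPKM. MC903 replicate 3, the library with high hair follicle markers, was the one MC903 value among the upper phytic acid values. The log2 fold change of Mylip was 0.41 ± 0.23 (adjusted p = 0.211) with all libraries and 0.60, called at an adjusted p of 0.0356, without that library.

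The 4 genes of export and of the LXR receptors also gave no call, by adjusted p, by unadjusted p under 0.05 or by voom, with a median log2 fold change of 0.21 against 0.05 over all tested genes. Abca1 and Abcg1, the pumps that load cholesterol on to lipoproteins and the best known LXR targets, ranged from 12.5 to 23.8 FPKM and from 3.13 to 5.86 FPKM with MC903. With phytic acid they ranged from 16.1 to 26.7 and from 4.85 to 6.55 FPKM. Both overlapped, and the intervals of their log2 fold changes ran from -0.31 to 0.60 and from -0.14 to 0.60.

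Of the receptors, Nr1h2 (LXR beta, made in most tissues) read 15.5, 13.4, 15.5 and 14.4 FPKM with MC903 and 15.8, 19.2, 16.6 and 16.3 FPKM with phytic acid. Every phytic acid library was higher, by a margin that did not pass the test (log2 fold change 0.20 ± 0.09, adjusted p = 0.152). Nr1h3 (LXR alpha, most plentiful in liver, fat and macrophages) read 2.86, 2.08, 3.51 and 2.78 FPKM and then 5.31, 3.601, 2.90 and 3.70 FPKM. Its groups overlapped through MC903 replicate 3 and phytic acid replicate 3 (log2 fold change 0.35 ± 0.17, adjusted p = 0.151). Macrophage markers summed to between 713 and 1190 FPKM with MC903 and to between 1199 and 1703 with phytic acid, and adipocyte markers to between 219 and 663 and between 767 and 1676. Of the 11 macrophage markers 3 were called higher and 8 were not called. Of the 9 adipocyte markers tested 4 were called higher and 5 were not called (14.2% of all tested genes were higher). Their part in the values of Nr1h3 was not tested.

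Among the phytic acid libraries the depth of the fall differed. Over the 14 lowered synthesis enzymes, the median difference from the MC903 mean in log2(FPKM + 1) was -0.51 in phytic acid replicate 1 and -0.85, -0.96 and -0.83 in replicates 2, 3 and 4. In the MC903 libraries it lay between -0.10 and 0.06. Phytic acid replicate 1 was the highest of its group for 9 of the 14 genes and replicate 3 the lowest for 7, and MC903 replicate 3 was the lowest of its group for 9. Every phytic acid library was below every MC903 library for each of the 14, which their selection as lowered genes makes likely.

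**Figure D4:**
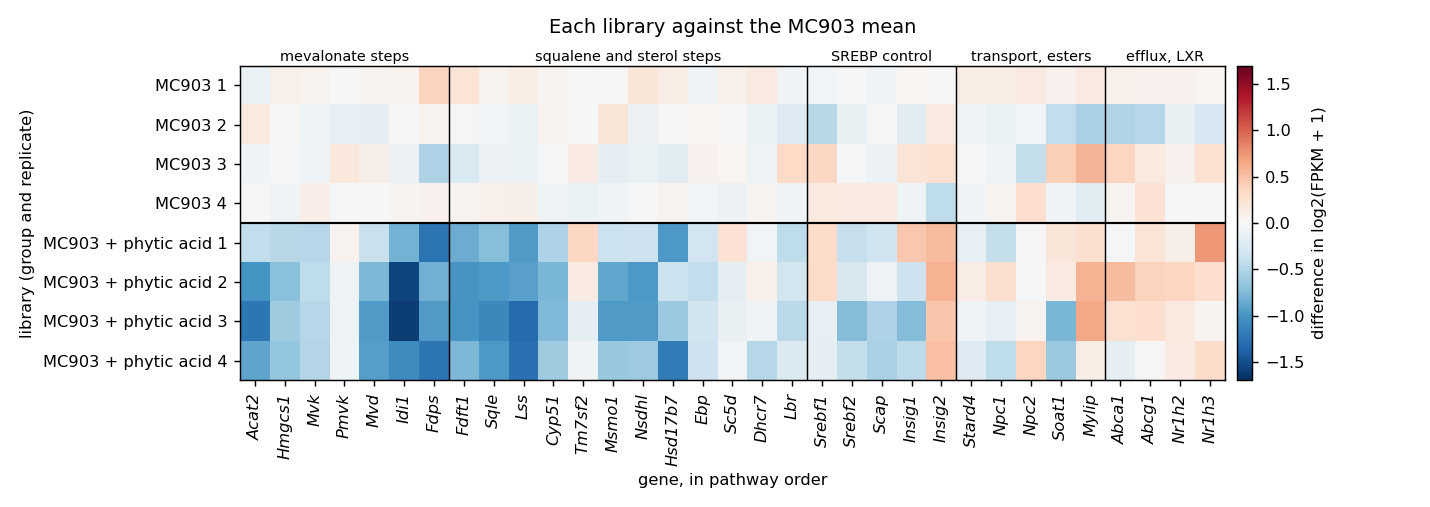
Difference of each library from the MC903 mean in log2(FPKM + 1), 1 column per gene in pathway order and 1 row per library, with blue below and red above the MC903 mean. The synthesis block of the 4 phytic acid rows is mostly blue, palest in phytic acid replicate 1 (median -0.51 over the 14 lowered enzymes), and the Insig2 column is red in all 4.

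Neighbouring pathways were read from the same fit. Of 15 genes of fatty acid synthesis, the other main SREBP programme, 3 were higher and 1 was lower, and the median log2 fold change was 0.07. Elovl1, an elongase of very long chain fatty acids for barrier ceramides, rose from 61.9 ± 4.69 to 112 ± 14.6 FPKM (SD, n = 4 per group; adjusted p = 0.00117). Me1, the malic enzyme that supplies NADPH, rose from 48.2 ± 4.78 to 84.7 ± 33.3 FPKM (adjusted p = 0.0337), with phytic acid replicate 1 at 134 FPKM. Acsl3, an acyl-CoA synthetase of lipid droplets, fell from 14.2 ± 2.05 to 6.74 ± 1.19 FPKM (adjusted p = 0.00159). Both counts are near the shares over all tested genes, 14.2% higher and 11.6% lower. Phytic acid replicate 1 was also the highest of all libraries for Acly, Acss2, Acaca, Fasn, Scd1 and Thrsp, none of them called. Fasn read 95.4 FPKM there and 12.2 to 38.5 FPKM in the other libraries. It was not the highest for Acacb, Elovl6, Scd2, Fads1 and Fads2. These genes were picked after their values were seen. The call of Me1 ended when MC903 replicate 1, 2 or 4 or phytic acid replicate 4 was left out (adjusted p of 0.0572 to 0.0866), and with any of those MC903 libraries absent Elovl1 was the 1 higher gene of the list.

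Of 14 genes that use isoprenoid units for other products, 13 were tested, with a median of -0.03. Of these 1 was higher and 3 were lower (14.2% and 11.6% over all tested genes). Pdss1, which builds the side chain of ubiquinone, read 11.6, 14.1, 9.93 and 13.5 FPKM with MC903 and 2.11, 2.57, 2.80 and 2.25 FPKM with phytic acid. It thus stood at 19.8% of its MC903 mean, a log2 fold change of -1.95 ± 0.12 (adjusted p = 9.91e-05), larger than that of any cholesterol gene here. Nus1, a subunit of the dolichol synthase, fell from 25.5 ± 4.67 to 15.8 ± 0.752 FPKM (adjusted p = 0.00643). Fnta, a farnesyltransferase subunit, rose from 22.3 ± 0.656 to 27.4 ± 1.002 FPKM (adjusted p = 0.0211). The call of Fnta was not kept when MC903 replicate 1, 2 or 4 was left out, nor in the absence of phytic acid replicate 1; the list then held no higher gene.

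The 8 genes that cut the SREBP factors or degrade sterol-regulated proteins gave no call by adjusted p or by voom, with a median of 0.07. At an unadjusted p under 0.05, 2003 of the 12165 tested genes were lower, and so were 2 of these 8. These were Erlin1, at 20.2 ± 1.96 and 16.4 ± 1.64 FPKM (adjusted p = 0.0698, and 0.0343 when MC903 replicate 3 was left out), and Mbtps2, a protease that releases SREBP, at 4.77 ± 0.305 and 3.89 ± 0.514 FPKM (adjusted p = 0.115; SD, n = 4 per group). Of 20 lipoprotein receptors and sterol carriers, 17 were tested, 3 were higher and 1 was lower (14.2% and 11.6% over all tested genes), with a median of 0.01. Pltp, a phospholipid transfer protein and LXR target, rose from 15.3 ± 2.22 to 31.0 ± 4.14 FPKM (adjusted p = 0.00107). Osbpl1a, a sterol-binding protein of late endosomes, rose from 11.9 ± 2.07 to 18.4 ± 2.47 FPKM (adjusted p = 0.0129), and its relative Osbpl2 fell from 20.1 ± 1.54 to 14.9 ± 1.61 FPKM (adjusted p = 0.0159, and 0.0551 when MC903 replicate 1 was left out).

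Of the 7 listed enzymes of oxysterols and cholesterol sulfate, 6 were in the table and 3 were tested. All 3 were called, against 25.8% of all tested genes. Sult2b1, which makes the cholesterol sulfate of the upper epidermis, read 20.3, 17.8, 13.0 and 25.1 FPKM with MC903 and 7.65, 7.78, 6.70 and 6.43 FPKM with phytic acid. The groups were far apart (log2 fold change -1.27 ± 0.17, adjusted p = 0.00129). Cyp7b1, which breaks down oxysterols, fell from 7.47 ± 3.21 to 3.40 ± 1.3998 FPKM (adjusted p = 0.0477), and Cyp27a1, which makes 27-hydroxycholesterol, rose from 14.3 ± 3.09 to 21.7 ± 4.74 FPKM (adjusted p = 0.0417). Groups overlapped for Cyp7b1. Its call ended when MC903 replicate 1, 2 or 4 or phytic acid replicate 1, 2 or 3 was left out (adjusted p of 0.0761 to 0.123). That of Cyp27a1 ended when MC903 replicate 2 or 4 or any phytic acid library was left out (0.0543 to 0.103). Other settings also ended them, among them no filter (0.0897 for Cyp7b1 and 0.072 for Cyp27a1). Voom did so for Cyp7b1 (0.057) and median-of-ratios scaling for Cyp27a1 (0.0629).

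The scaling of the libraries moved all genes together. Median-of-ratios scaling turned the split over all tested genes from 1722 higher and 1412 lower into 1469 higher and 1828 lower, and left 17 members lower and none higher (1 by the deposited scale). Centring on basal keratinocyte genes moved the median of all tested genes from 0.05 to 0.18 and gave 1977 higher and 704 lower. On that scale 11 members were lower, all of them synthesis enzymes, and their median with the rest of the 19 was -0.58. The shift taken off log2(FPKM + 1) was 0.34 in MC903 replicate 4 and -0.07 to 0.004 in the other MC903 libraries. With phytic acid it was -0.14 to 0.03, so this setting rests largely on MC903 replicate 4. Suprabasal keratinocyte markers, which mark the cells above the basal layer, summed to between 4763 and 7650 FPKM with MC903 and to between 8119 and 10519 with phytic acid, and sebaceous gland markers to between 486 and 533 and between 578 and 673. Of the 8 suprabasal markers 5 were higher and 1 was lower, and of the 8 sebaceous markers 2 were higher and 2 were lower (14.2% and 11.6% over all tested genes). Their part in the result was not tested. Skeletal muscle and Langerhans and dendritic cell markers were also higher with phytic acid, at 9010 to 10560 against 4158 to 4951 FPKM and at 567 to 1281 against 113 to 291 FPKM.

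**Figure D5:**
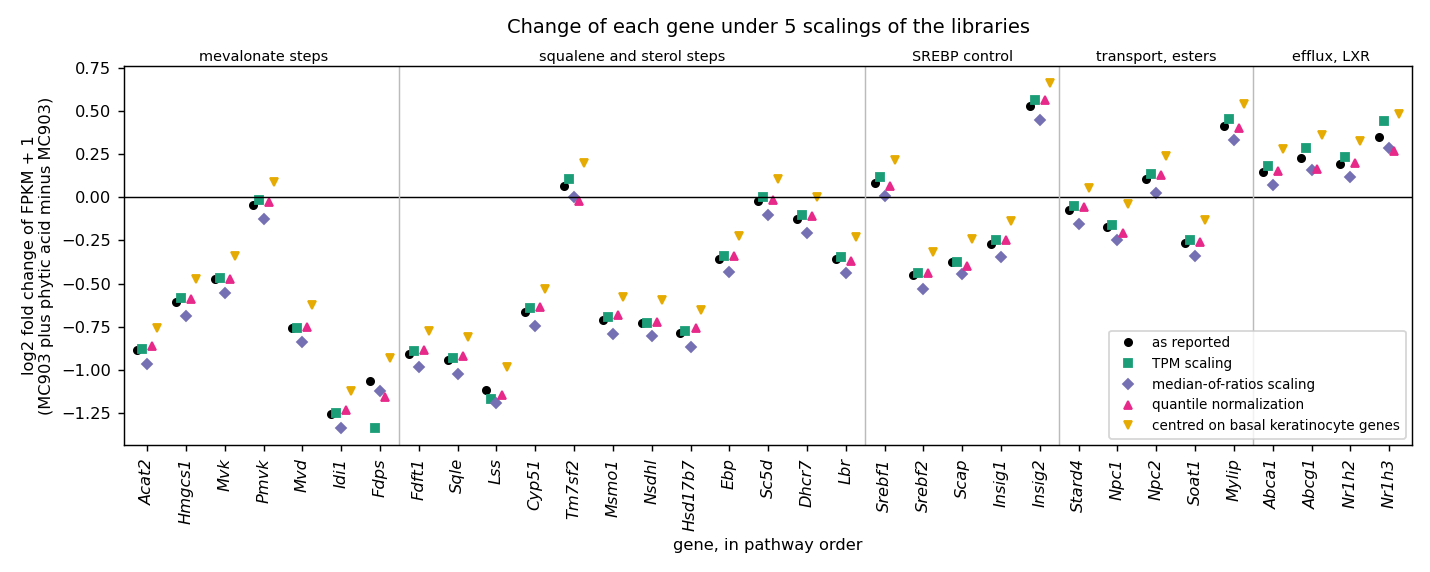
Log2 fold change of FPKM + 1 (vertical axis, MC903 plus phytic acid minus MC903) of the 33 genes in pathway order under 5 scalings of the libraries, 1 symbol per scaling. The 14 lowered synthesis enzymes lie below 0 under all 5 and Insig2 above 0 under all 5, while Pmvk, Tm7sf2, Sc5d, Dhcr7 and Stard4 lie near 0 on either side.

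Across all 23 alternatives run, 11 of the members kept their call in every setting that gave them a value. They were Acat2, Mvd, Idi1, Fdps, Fdft1, Sqle, Lss, Cyp51, Msmo1, Nsdhl and Hsd17b7, all of them synthesis enzymes. Fdps met the filter through its MC903 libraries and had no value at a mean FPKM of at least 5. Fdft1 had none by voom. Hmgcs1, Mvk and Ebp lost it when libraries were centred on basal keratinocyte genes (adjusted p of 0.0595, 0.0752 and 0.281). That setting shifted MC903 replicate 4 far more than any other library. No member changed direction among those called.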

How the data were processed

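RNA of mouse skin was sequenced in 8 libraries, 4 per group, after TRIzol extraction and a SMARTER mRNA kit, per the labels' protocols. The values are FPKM, deposited by the authors as 1 table with a column per library. Tools named in the submitters' processing notes are cutadapt, HISAT2, TopHat2 and DESeq, with the mouse build mm10. Which of them gave the FPKM, their versions, the annotation and the strand setting were not given in the sources used here. The 51 rows without a gene name (at most 0.0238% of a column) were left out, and 21885 genes were kept. FPKM times exon length gave whole reads within 0.05 for 17482 of 17976 genes (97.3%) with a single record in GENCODE GRCm38, and library totals came from these. Between replicates the chi-square per gene was 33.7 to 174, far above counting noise.

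Genes with 4 or more libraries at an FPKM of 1 or more were fitted as log2(FPKM + 1) in limma 3.58.1 under R 4.3.3 (lmFit, eBayes with trend), with group as the single factor. Tests are two-sided with Benjamini-Hochberg adjustment over all 12165 genes, called under 0.05, and fold changes are on the log2(FPKM + 1) scale, which understates those of low genes. The procedure was also run on simulated counts that gave every gene the same excess spread between libraries. Such counts cannot show how often calls are right in the real libraries. Every member was to be named, and of each neighbouring list up to 3 called genes of smallest p, or 2 where none was called. The members and lists were chosen with earlier results of these data known. Alternatives covered pseudocounts, filters, scalings, library weights, variance models, voom on recovered reads, a replicate block and each library left out; centring on the median gene was added after the data were seen.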

Additional observations from a re-analysis of the deposited data

Results flagged for a closer look

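In 66 groups of 4 libraries (33 members in each treatment), 1 library lay far from the other 3 of its group by Dixon's criterion at the 95% level. Chance alone flags about 1 group in 20. It was phytic acid replicate 1 for Pmvk, the second kinase of the mevalonate steps, at 29.8286 FPKM, against 26.7, 26.7 and 27.1 FPKM in the other phytic acid libraries. The value lies inside the MC903 range of Pmvk, 25.8 to 32.4 FPKM, and Pmvk was not called with or without it.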

How the results depend on the processing

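Of 755 member values under 23 alternatives, 723 kept direction and side of the threshold, 25 lost a call, 7 gained one and 0 reversed. The number of members called lower ran from 11 (centred on basal keratinocyte genes) to 17. The number called higher was 0 under median-of-ratios scaling and 0 to 2 when a library was left out: Insig2 lost its call when MC903 replicate 1 was dropped, or phytic acid replicate 1, 2 or 4, and Mylip gained one without MC903 replicate 3. Members lower with no overlap numbered 9 when centred on basal keratinocyte genes; members higher with no overlap numbered 1 under TPM, median-of-ratios and quantile scaling and when centred on the median gene. Centred on basal keratinocyte genes, the median log2 fold change was -0.56 for squalene and sterol steps and 0.34 for export and LXR genes. Over the whole table, library weights called 4796 genes (2865 higher), a mean FPKM of at least 5 gave 1098 higher, and centring on basal keratinocyte genes gave 704 lower. Leaving out a library gave 2013 to 3979 called genes, 1072 to 2418 higher and 941 to 1561 lower, with the lowest of each without MC903 replicate 1.

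Fitted with a replicate block, 2046 genes were called (1098 higher), and 14 members were lower, 13 of them synthesis enzymes; Ebp and Scap lost the call. The labels do not say that the numbers pair libraries. Same-numbered libraries correlated at -0.28, -0.10, -0.29 and 0.23 in their deviations from the group means. Differently numbered libraries reached 0.40 (MC903 replicate 3 with phytic acid replicate 1) and -0.29 (MC903 replicate 2 with phytic acid replicate 1). With so few libraries these values cannot decide whether the numbers pair them. With 4 libraries per group, replicate spread rather than read depth limits the precision of these genes. Negative binomial tests were not run on the recovered reads.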

Other observations

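MC903 replicate 3, the library with high hair follicle markers, was the highest MC903 library for Pmvk, Mvd, Tm7sf2, Ebp, Lbr, Srebf1, Insig1, Insig2, Soat1, Mylip, Abca1 and Nr1h3. It was the lowest MC903 library for Mvk, Idi1, Fdps, Fdft1, Sqle, Lss, Msmo1, Nsdhl, Hsd17b7, Scap and Npc2. Acly, which makes cytosolic acetyl-CoA ahead of both sterols and fatty acids, read 58.2, 49.9, 83.8 and 66.4 FPKM with MC903 and 152, 49.8, 41.0 and 63.4 FPKM with phytic acid; it was chosen after its values were seen. Phytic acid replicate 1 was the highest of all 8 libraries for Acly, and among the cholesterol genes for Tm7sf2, Sc5d, Insig1 and Nr1h3.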
